A study of Mus musculus with 12 samples.

Results

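The small nucleolar RNA host genes described here are 10 genes, Snhg1, Snhg3, Snhg5, Snhg6, Snhg8, Snhg12, Snhg15, Snhg18, Snhg20 and Gas5, of 55536 genes with a value. The cells were B16.F10, a melanoma line from a C57BL/6 mouse. The genes were picked by name, though with earlier results of these data known, and their levels were followed across 4 groups of 3 libraries. A rule for symbols on more than 1 line (keep the line with the highest mean over the 12 libraries) decided nothing, since each of the 10 stood on 1 line. Control cells carried a short interfering RNA (siRNA) aimed at luciferase (siLuc) for 72 h, and knockdown cells one aimed at Prmt7 (siPRMT7), the gene of an arginine methyltransferase. In each arm, 1 group was kept with interferon gamma (IFN-γ) over the final 24 h and 1 was not. All 4 groups were thus transfected with an siRNA, and no group of cells that had not been transfected was analysed here. Poly(A) RNA was sequenced, and values are on the log2 scale of the regularized logarithm (rlog), so a difference of 1 is a 2-fold change. The labels do not say whether the libraries of a group came from separate cultures, so p-values speak of the variation among these libraries, which could be technical. Of the 10 genes, 9 were among the 14407 genes tested (mean rlog value of at least 4). Snhg18 was the exception, at 0 in all 12 libraries. None of the 9 was tested only through a group where it was high, since their lowest value in any library was 7.82.

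Small nucleolar RNAs (snoRNAs) are short stable RNAs that guide chemical changes of ribosomal RNA in the nucleolus. Those of the box C/D class direct methylation of ribose, and those of the box H/ACA class direct the change of uridine into pseudouridine. In mammals most of them are cut from introns, and in a host gene of this family the spliced exons make an RNA with little or no coding potential. Many such hosts start transcription at a C followed by pyrimidines, as ribosomal protein genes do, and the spliced RNA of many of them is broken down by nonsense-mediated decay, which removes RNAs that are translated up to an early stop codon.

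The knockdown was seen at its target. Prmt7 stood at 10.16, 10.34 and 10.24 in the siLuc libraries and at 6.16, 6.32 and 6.41 in the siPRMT7 libraries, and at 10.24 to 10.26 and 6.08 to 6.36 with IFN-γ. Library totals ran from 19.0 to 31.0 M reads. All 7 melanocyte markers looked at (Mlana, Pmel, Tyr, Tyrp1, Dct, Sox10 and Mitf) were at a mean of at least 4, and Pmel averaged 16.3. Their summed level on the log2 scale was 18.9 in siLuc and 18.5 to 18.6 in siPRMT7 libraries, and 18.6 to 18.7 and 18.1 to 18.2 with IFN-γ. Of 5 leukocyte markers (Ptprc, Cd3e, Itgam, Cd68 and Lyz2), only Cd68 reached a mean of 4, Cd3e was at 0 in every library, and Ptprc averaged -0.62. Their summed level was 5.62 to 5.78 in siLuc and 6.58 to 6.87 in siPRMT7 libraries, and 5.50 to 5.83 and 7.18 to 7.40 with IFN-γ. Of 7 fibroblast, endothelial and keratinocyte markers (Col1a1, Col1a2, Pdgfra, Pecam1, Cdh5, Krt14 and Krt5), 3 reached a mean of 4 and none was at 0 throughout, and their summed level was 9.39 to 9.69, 8.09 to 8.26, 9.94 to 10.1 and 9.34 to 9.60 in siLuc without and with IFN-γ and siPRMT7 without and with it. The part of these shifts in the results that follow was not tested.

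The start regions are shown because host genes of this family are known for the letters at which transcription begins. The RefSeq promoter table (GRCm38.p6) held 9 of the 10 genes, Snhg6 excepted. Each line gives 70 bases before and 30 bases from the annotated start of a tested host gene, in the direction of transcription. Capitals mark TATAAA or TATATA lying 40 to 15 bases before the start, and a C followed by at least 4 C or T. The C and the first 4 letters after it had to lie wholly within 10 bases of the start on either side.
Snhg12 (chr4:132308608-132308707, plus strand): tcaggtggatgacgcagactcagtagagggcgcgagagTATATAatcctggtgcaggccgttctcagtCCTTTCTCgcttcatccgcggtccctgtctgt
Gas5 (chr1:161035096-161035195, plus strand): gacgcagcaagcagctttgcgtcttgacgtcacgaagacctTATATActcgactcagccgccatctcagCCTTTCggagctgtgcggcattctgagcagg
Snhg5 (chr9:88522868-88522967, minus strand): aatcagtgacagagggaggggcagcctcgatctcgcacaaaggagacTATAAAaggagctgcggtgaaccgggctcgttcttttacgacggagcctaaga
Snhg8 (chr3:123508307-123508406, minus strand): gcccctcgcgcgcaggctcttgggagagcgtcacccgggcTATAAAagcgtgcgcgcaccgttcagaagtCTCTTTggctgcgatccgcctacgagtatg
Snhg1 (chr19:8723417-8723516, plus strand): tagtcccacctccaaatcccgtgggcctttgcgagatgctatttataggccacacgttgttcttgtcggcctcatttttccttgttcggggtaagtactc
Snhg15 (chr11:6528731-6528830, minus strand): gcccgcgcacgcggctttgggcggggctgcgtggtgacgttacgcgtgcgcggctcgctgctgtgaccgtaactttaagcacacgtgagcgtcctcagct
Snhg3 (chr4:132353657-132353756, minus strand): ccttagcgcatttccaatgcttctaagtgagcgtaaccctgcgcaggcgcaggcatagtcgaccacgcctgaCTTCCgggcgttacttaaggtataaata
Snhg20 (chr11:117076713-117076812, plus strand): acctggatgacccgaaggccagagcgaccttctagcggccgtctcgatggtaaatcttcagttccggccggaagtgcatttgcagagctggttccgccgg

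TATAAA or TATATA stood 40 to 15 bases before the start in Snhg5, Snhg8, Snhg12 and Gas5, which is 4 of 9 promoters against 2.73% of 32851 promoters in the table. The C with 4 pyrimidines after it stood near the start of Snhg3, Snhg8, Snhg12, Snhg18 and Gas5, 5 of 9 against 25.5%. In Snhg5 such a run began at the edge of the stretch searched and ran past it, so it was not counted. The other motifs were searched on both strands of the window from 250 bases before to 50 after the start. TGACGTCA was found in Snhg15 and Gas5 (1.79% of all promoters) and CACGTG in Snhg15 alone of the 9 (7.15%), and these motifs share the letters ACGT without either holding the other. GGGCGG was found in 7 of 9 (35.7%) and CCAAT in 3 of 9 (37.4%). Neither the core of the interferon-stimulated response element (3.44%) nor TTCNNNGAA, the pattern of gamma-activated sites (8.30%), was found in these windows. A match is only a match of letters.

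The small RNAs shown next are the 4 inside Snhg12, the host with the widest range of levels, and 3 inside Snhg1 and Gas5 that had a mean rlog value of at least 4. Sequences are read from the GENCODE M21 annotation (GRCm38). Capitals mark box C (TGATGA) and box D (CTGA) in the box C/D class, which bring the ends of the RNA together, and the ACA that stands near the end in the other class.
Snora16a (chr4:132309464-132309600, plus strand): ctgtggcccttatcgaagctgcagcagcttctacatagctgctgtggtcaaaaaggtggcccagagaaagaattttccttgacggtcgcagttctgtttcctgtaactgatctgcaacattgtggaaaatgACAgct
Snora44 (chr4:132309941-132310069, plus strand): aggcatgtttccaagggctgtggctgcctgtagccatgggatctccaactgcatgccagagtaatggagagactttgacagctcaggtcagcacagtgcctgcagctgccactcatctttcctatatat
Snora61 (chr4:132310240-132310369, plus strand): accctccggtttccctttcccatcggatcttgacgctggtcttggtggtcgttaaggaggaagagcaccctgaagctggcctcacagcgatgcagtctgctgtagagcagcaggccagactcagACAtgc
Snord99 (chr4:132310691-132310764, plus strand): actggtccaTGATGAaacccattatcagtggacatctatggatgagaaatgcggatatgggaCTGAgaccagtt
Snord22 (chr19:8725866-8725991, plus strand): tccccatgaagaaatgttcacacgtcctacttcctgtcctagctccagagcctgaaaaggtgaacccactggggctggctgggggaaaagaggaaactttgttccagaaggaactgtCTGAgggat
Snord78 (chr1:161036984-161037049, plus strand): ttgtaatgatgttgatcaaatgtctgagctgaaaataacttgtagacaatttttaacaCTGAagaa
Gm22357 (chr1:161036057-161036139, plus strand): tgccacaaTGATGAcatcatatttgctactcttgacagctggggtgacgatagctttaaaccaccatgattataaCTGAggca

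Snora16a, Snora44 and Snora61 carry names of the H/ACA class and Snord99 that of the box C/D class, so Snhg12 hosts both. Of the 21 distinct small RNAs inside Snhg1, Snhg12 and Gas5, a search for these letters found box C and box D in 14, box D alone in 4, the ACA in 2 and neither in 1. Snord22 and Snord78 were among those with box D alone, which says only that the exact letters TGATGA were not found.

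GENCODE M21 places 30 snoRNA or small Cajal body RNA entries inside the 10 host genes, with 2 further entries that repeat a snoRNA left out. Gas5 held 9, Snhg1 held 8, and each of Snhg6, Snhg8, Snhg15, Snhg18 and Snhg20 held 1. Each host gene's line carries a length that fits 1 transcript model of the gene, out of 1 to 25 models. In that model 18 of the 30 entries lie wholly within exons, that is, in an intron that the model keeps, as for 7 of 8 in Snhg1, 6 of 9 in Gas5 and 3 of 4 in Snhg12. The labels and headers do not say whether reads were counted over that model alone.

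**Figure D1:**
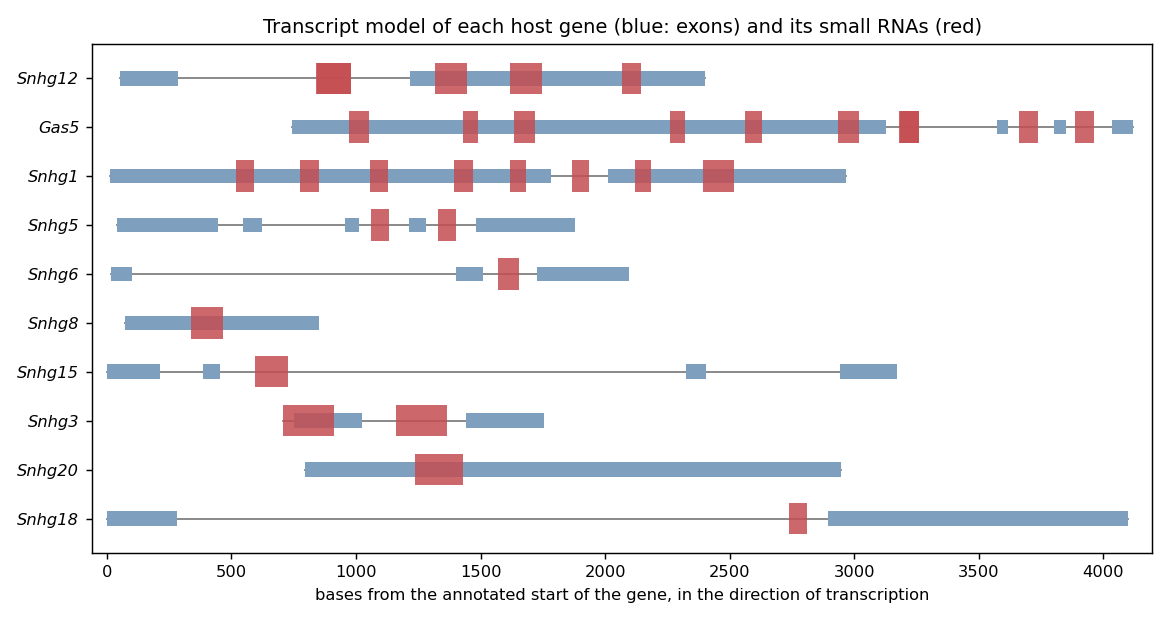
Exons (blue) of the transcript model that each host gene's line fits, and the small RNAs annotated inside the gene (red), by distance in bases from the annotated start in the direction of transcription. Red lies over blue for the small RNA of Snhg8 and of Snhg20 and for 7 of 8 in Snhg1, 6 of 9 in Gas5 and 3 of 4 in Snhg12, partly for 1 of 2 in Snhg3, and between exons in Snhg5, Snhg6, Snhg15 and Snhg18.

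Most of the host genes were higher after Prmt7 knockdown. Snhg12 had been seen among the largest rises of this comparison before the members were listed. Its knockdown differences are therefore described with no test, and it stands outside the counts of this paragraph. The other members were also listed with earlier results of these data known. Of the other 8 measured host genes, 6 were higher in siPRMT7 cells without IFN-γ, Snhg3 was lower, and Snhg20 did not pass the test (limma, adjusted p under 0.05 over all genes tested). In the same comparison 36.3% of all genes tested were called higher and 38.9% lower. The median difference of the 8 was 0.98 against -0.01 over all genes. A rise of at least 2-fold was seen in 4 of 8 (Snhg6, Gas5, Snhg15 and Snhg5) against 4.65% of all genes. With IFN-γ present in both arms the calls were the same 6 higher, Snhg3 lower and Snhg20 not called, where 35.9% of all genes were called higher and 38.7% lower. The median was then 1.20 against -0.01, and 5 of 8 rose at least 2-fold, Snhg1 being added, against 3.90% of all genes. The libraries are of bulk RNA, so a change in the share of cells that express a gene and a change of RNA per cell cannot be told apart.

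**Figure D2:**
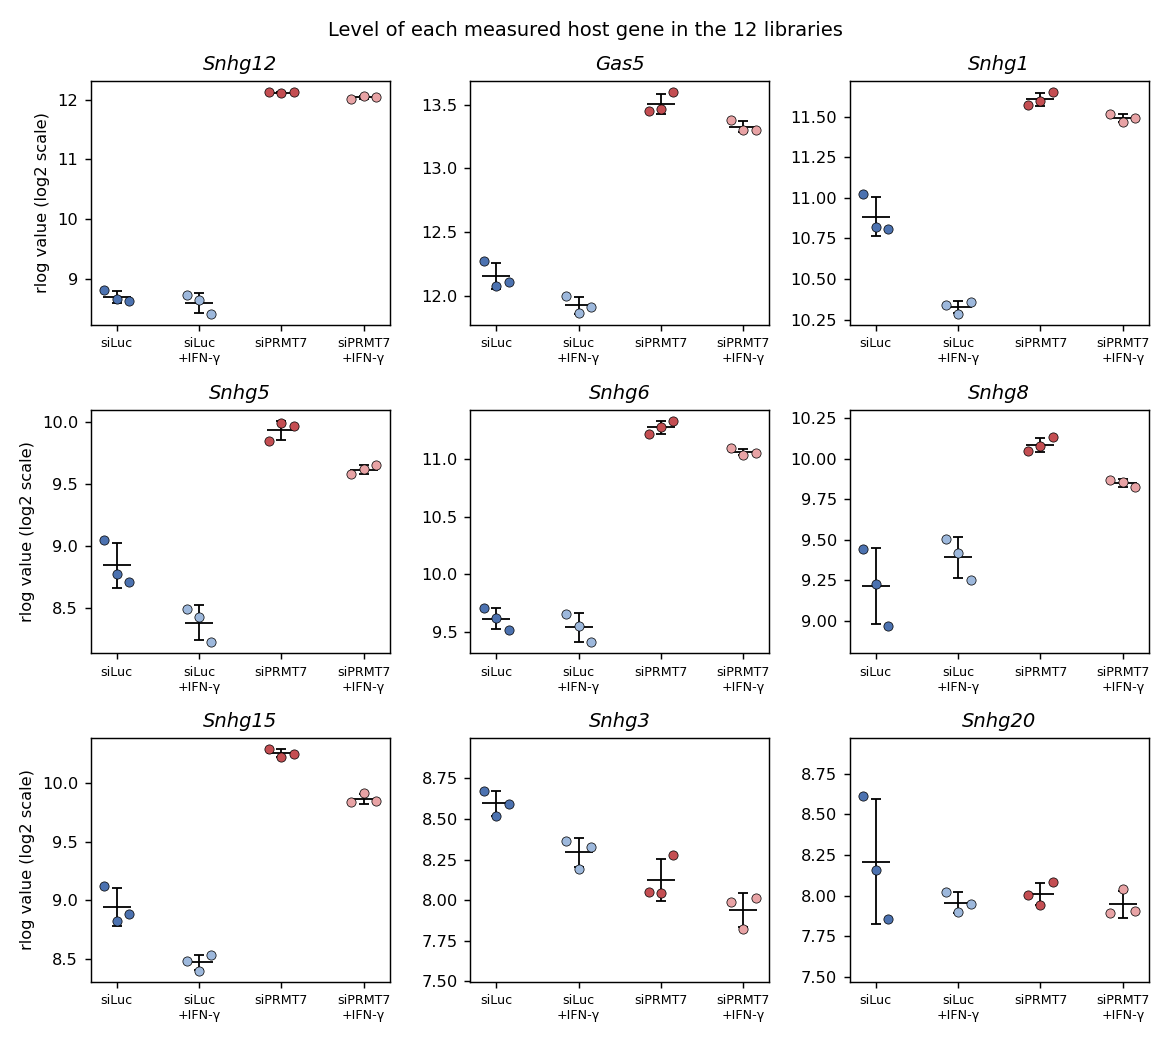
rlog value (log2 scale, each axis cropped to the gene's range) of the 9 measured host genes in the 12 libraries; points are libraries, the long bar is the group mean and the whiskers are ± 1 SD (n = 3). The siPRMT7 groups lie above both siLuc groups in 7 genes, Snhg12 among them, and below the matching siLuc group in Snhg3. The groups overlap in Snhg20. The share of all genes with such gaps is not given here.

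Snhg12, the host of both snoRNA classes, showed the widest range. Its rlog value was 8.81, 8.65 and 8.62 in siLuc cells and 12.12, 12.12 and 12.13 in siPRMT7 cells. With IFN-γ it was 8.73, 8.64 and 8.41 in siLuc and 12.02, 12.07 and 12.04 in siPRMT7 cells. No library of a knockdown group came near a control library, and the knockdown libraries of each group lay close together, with SDs of 0.01 and 0.03. The difference was 3.43 (SE 0.06), or 10.8-fold, without IFN-γ and 3.45 (SE 0.06), or 10.9-fold, with it. The authors' deposited table gave log2 fold changes of 3.52 and 3.54 for it.

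Gas5, a growth-arrest-associated RNA that hosts box C/D snoRNAs, was the most abundant of the 10. It was at 12.27, 12.08 and 12.11 in siLuc and at 13.45, 13.47 and 13.60 in siPRMT7 libraries, and at 12.001, 11.869 and 11.915 against 13.38, 13.30 and 13.30 with IFN-γ. The groups did not overlap in either setting. Gas5 rose 2.55-fold without IFN-γ (log2 difference 1.35, SE 0.05, limma adjusted p = 1.06e-15) and 2.64-fold with it (1.40, adjusted p = 4.62e-16).

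Snhg6, which hosts the box C/D snoRNA Snord87, had the next largest difference after Snhg12. Its values were 9.71, 9.62 and 9.52 in siLuc against 11.21, 11.28 and 11.33 in siPRMT7 libraries, and 9.65, 9.55 and 9.41 against 11.09, 11.04 and 11.05 with IFN-γ. All 6 knockdown libraries were above all 6 control libraries. The rise was 3.15-fold (log2 difference 1.66, SE 0.06, limma adjusted p = 2.33e-16) and 2.87-fold with IFN-γ (1.52, adjusted p = 7.28e-16). Of the exon bases of its model, 10.9% are shared with Mcmdc2 on the other strand, so the line may hold reads of both.

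Snhg5, host of Snord50a and Snord50b, stood at 9.05, 8.77 and 8.72 in siLuc and at 9.85, 9.99 and 9.97 in siPRMT7 libraries, and with IFN-γ at 8.50, 8.43 and 8.23 against 9.58, 9.62 and 9.65. The knockdown groups were above the control groups without overlap. It rose 2.13-fold (1.09, SE 0.08, limma adjusted p = 5.28e-11) without and 2.35-fold (1.23, adjusted p = 6.60e-12) with IFN-γ.

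Snhg1, which hosts 8 box C/D small RNAs including Snord22, was at 11.02, 10.82 and 10.81 in siLuc and at 11.57, 11.60 and 11.65 in siPRMT7 libraries. With IFN-γ the values were 10.34, 10.29 and 10.36 against 11.51, 11.47 and 11.49, a wider gap. The rise was 1.65-fold (0.72, SE 0.05, limma adjusted p = 1.22e-11) without IFN-γ and 2.24-fold (1.16, SE 0.05, adjusted p = 4.44e-15) with it.

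Among the hosts of H/ACA snoRNAs, Snhg15 (Snora9) and Snhg8 (Snora24) rose and Snhg3 (Snora73a and Snora73b) fell. Snhg15 was at 9.13, 8.82 and 8.89 in siLuc and at 10.29, 10.22 and 10.25 in siPRMT7 libraries, and at 8.49, 8.40 and 8.53 against 9.84, 9.91 and 9.84 with IFN-γ. The groups did not overlap, and the rise was 2.47-fold (1.31, SE 0.06, limma adjusted p = 1.12e-13) without and 2.62-fold (1.39, adjusted p = 3.78e-14) with IFN-γ.

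Snhg8 was at 9.44, 9.23 and 8.97 in siLuc and at 10.05, 10.07 and 10.13 in siPRMT7 libraries, and at 9.50, 9.42 and 9.25 against 9.87, 9.86 and 9.82 with IFN-γ. The siLuc libraries spread widely, with an SD of 0.24, yet stayed below the knockdown libraries. It rose 1.83-fold (0.87, SE 0.08, limma adjusted p = 4.12e-09) without IFN-γ and 1.37-fold (0.46, adjusted p = 3.57e-05) with it.

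Snhg3 was the 1 host gene that fell. It was at 8.67, 8.52 and 8.59 in siLuc and at 8.05, 8.04 and 8.28 in siPRMT7 libraries, and at 8.36, 8.19 and 8.33 against 7.99, 7.82 and 8.02 with IFN-γ. The groups did not overlap in either setting. The fall was 1.39-fold (log2 difference -0.47, SE 0.08, limma adjusted p = 1.61e-05) and 1.28-fold with IFN-γ (-0.35, adjusted p = 0.000419). This line is uncertain: 85.5% of its exon bases are shared with Gm17300 on the other strand and 3.27% with Rcc1 on the same strand. In the same comparisons Gm17300 fell by 0.45 and 0.37, and Rcc1, which encodes a nucleotide exchange factor of the small GTPase Ran, fell by 0.68 and 0.63.

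Snhg20, host of a small Cajal body RNA, did not pass the knockdown test. It was at 8.62, 8.16 and 7.85 in siLuc and at 8.002, 7.945 and 8.084 in siPRMT7 libraries, and at 8.02, 7.90 and 7.95 against 7.89, 8.04 and 7.90 with IFN-γ. Its siLuc libraries spanned more than all other groups together and covered them. The difference was -0.20 (95% interval -0.45 to 0.05, limma adjusted p = 0.141) without IFN-γ and -0.01 (interval -0.26 to 0.24, adjusted p = 0.934) with it. Without siLuc replicate 3 the first value was -0.38 with an adjusted p of 0.00265, and without siLuc replicate 1 it was 0.01, so 1 library decides it. Snhg18, host of Snord123, was listed at 0 in every library and gave no comparison.

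At all 9 measured host genes siLuc replicate 1 was above the other libraries of its group, which held for 31.6% of all genes tested, and at 7 of 9 siPRMT7 replicate 3 topped its group, against 31.6%. Leaving out each library in turn left the count of host genes called higher, Snhg12 aside, at 6 in both knockdown comparisons. The difference of Gas5 without IFN-γ then ran from 1.31 to 1.41, that of Snhg5 from 1.02 to 1.19 and that of Snhg8 from 0.75 to 0.98. The authors' deposited table made the same call for these 8 in both knockdown comparisons and for 9 of 9 in both IFN-γ comparisons.

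In control cells IFN-γ lowered part of the set and raised none past the test. Snhg1, Snhg15, Snhg5, Snhg3 and Gas5 were lower, 5 of 9, where 32.7% of all genes tested were called lower, and 0 of 9 were called higher by limma, where 28.0% were. At an unadjusted p under 0.05 Snhg8 was higher, and the authors' deposited table called 0 higher. The median over the 9 was -0.25 against -0.02 over all genes. Snhg1 fell by 0.56 (SE 0.05, limma adjusted p = 1.74e-09), Snhg15 by 0.47 (adjusted p = 2.02e-06) and Snhg5 fell by 0.46 (adjusted p = 2.69e-05). Gas5 fell by 0.23 (adjusted p = 0.000528) and Snhg3 fell by 0.30 (adjusted p = 0.00242). In each of these 5 the 3 libraries with IFN-γ lay below the 3 without, but the share of all genes for which this held is not given here. The other 4 values did not pass, at -0.25 for Snhg20 (adjusted p = 0.0783), 0.18 for Snhg8 (0.0672), -0.10 for Snhg12 (0.163) and -0.08 for Snhg6 (0.247), and the 2 groups overlapped in each. With the library medians set equal, Snhg6, Snhg12 and Snhg20 passed too, which made 8 lower. Snhg8 was called higher without siLuc replicate 1 (0.29, adjusted p = 0.00150) and without replicate 3 of the siLuc group with IFN-γ (0.25, adjusted p = 0.0230). Without siLuc replicate 3, Snhg20 was called at -0.43, and Snhg12 was called at -0.17 without replicate 1 of the siLuc group with IFN-γ.

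In siPRMT7 cells IFN-γ lowered 6 of 9 host genes, where 28.6% of all genes were called lower, and raised 0 of 9, where 28.0% were called higher. At an unadjusted p under 0.05 limma also gave 0 higher, as did the authors' deposited table at its adjusted p. The median was -0.18 against -0.00 over all genes. Snhg15 fell by 0.39 (SE 0.06, limma adjusted p = 2.79e-05), Snhg5 fell by 0.32 (adjusted p = 0.00146) and Snhg8 fell by 0.24 (adjusted p = 0.0178). Snhg6 fell by 0.21 (adjusted p = 0.00272), Gas5 fell by 0.18 (adjusted p = 0.00424) and Snhg1 fell by 0.12 (adjusted p = 0.0397). Snhg3 was at -0.18 (adjusted p = 0.0553), Snhg12 at -0.08 (0.283) and Snhg20 at -0.06 (0.677). The call of Snhg1 was lost in 7 of the 20 other settings, 5 of which left out a library of these groups, and that of Snhg8 was lost in 4, while Snhg3 passed in 7. The 2 IFN-γ comparisons share no library with each other, but each shares its groups with the knockdown comparisons.

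**Figure D3:**
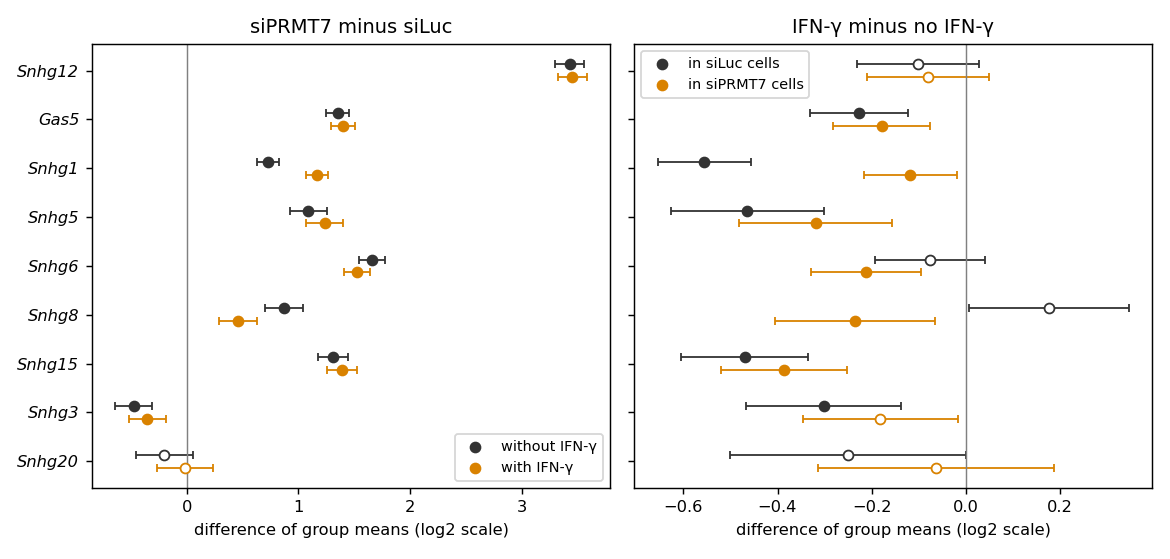
Difference of group means (log2 scale) for the 9 measured host genes, on the left siPRMT7 minus siLuc without (black) and with (orange) IFN-γ, on the right IFN-γ minus none in siLuc (black) and siPRMT7 (orange) cells. Points are limma estimates, bars their 95% intervals and filled points those with an adjusted p under 0.05; for Snhg12 the left panel is a description. Snhg12 lies at 3.43 and 3.45, Snhg3 below 0, and the IFN-γ differences stay between -0.56 and 0.18.

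The IFN-γ response itself differed between the arms in 2 host genes, by the interaction term of the same limma fit. In this test 14.1% of all genes were called higher and 16.5% lower, against 1 and 1 of the 9. Snhg1 was lowered by IFN-γ in siLuc cells and much less in siPRMT7 cells, so its term was 0.44 (SE 0.07, adjusted p = 3.19e-05). Snhg8 was at 0.18 in siLuc and at -0.24 in siPRMT7 cells, and its term was -0.41 (SE 0.12, adjusted p = 0.00937). For the other 7 the term ran from -0.14 (Snhg6) to 0.19 (Snhg20) and did not pass, the 95% interval being -0.16 to 0.20 for Snhg12 and -0.10 to 0.19 for Gas5. With no filter on low values the adjusted p of Snhg8 was 0.0539. All 4 groups enter this term, so it shares its libraries with each comparison above.

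The small RNAs inside the hosts were weakly measured in these poly(A) libraries. Of the 30 entries, 4 had a mean rlog value of at least 4, and 3 were at or below 0. The 26 entries inside Snhg12 and the 6 hosts called higher showed differences between siPRMT7 and siLuc cells from -0.49 to 0.22 with a median of -0.04. rlog values of weakly measured genes are drawn toward their mean, so any real difference among these entries may be understated. Inside Snhg12 the 4 entries in the table stood between 1.16 and 2.44 and differed by -0.21 to 0.01.

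Snord22, in an exon of the Snhg1 model, was at 4.91, 4.69 and 4.89 in siLuc and at 4.46, 4.24 and 4.51 in siPRMT7 libraries. It fell by 0.43 (SE 0.11, limma adjusted p = 0.00152) without overlap, while the line of its host rose. Snord78, in an exon of the Gas5 model, was at 5.48, 4.96 and 5.27 against 4.67, 5.09 and 4.93. It fell by 0.34 (SE 0.14, adjusted p = 0.0373), although the groups overlapped. Gm22357, also inside Gas5, was at 0.22 (adjusted p = 0.203), and Snora73b, inside Snhg3, was at -0.13 (adjusted p = 0.281). With IFN-γ the knockdown difference of Snord22 was -0.20 (adjusted p = 0.115) and that of Snord78 was 0.01 (adjusted p = 0.973). Reads of a snoRNA and of a host exon over it cannot be told apart here.

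**Figure D4:**
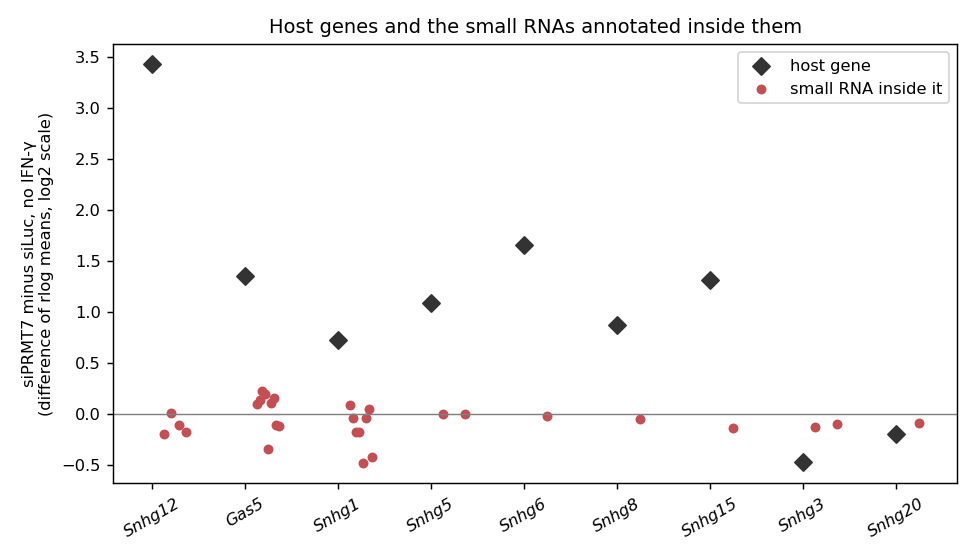
Difference of rlog means between siPRMT7 and siLuc cells without IFN-γ (log2 scale) for each measured host gene (black diamonds) and for the small RNA entries annotated inside it (red points, spread sideways). Hosts range from -0.47 to 3.43, and the small RNAs, most of them weakly measured, from -0.49 to 0.22.

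Genes next to the hosts moved in part with them. Slc3a2, which encodes the heavy chain of amino acid transporters, starts 106 bases from Snhg1 on the other strand. It was at 12.37, 12.37 and 12.32 in siLuc, at 12.22, 12.28 and 12.22 with IFN-γ, at 12.49, 12.55 and 12.45 in siPRMT7 and at 12.82, 12.83 and 12.85 in siPRMT7 libraries with IFN-γ. The last group stood above the others. Its knockdown difference was 0.15 (limma adjusted p = 0.000751) without and 0.59 (adjusted p = 2.87e-12) with IFN-γ, and its interaction term was 0.44 (SE 0.05, adjusted p = 6.16e-07), the value that Snhg1 had too. Unlike Snhg1, Slc3a2 rose with IFN-γ in siPRMT7 cells, by 0.33 (adjusted p = 5.44e-08).

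Mcmdc2, a gene of the MCM domain family whose end overlaps Snhg6 on the other strand, rose by 1.43 (SE 0.09, limma adjusted p = 6.26e-12), from 6.88 to 6.99 in siLuc to 8.29 to 8.41 in siPRMT7 libraries. Snhg6 rose by 1.66 in the same libraries. Zbtb37, which encodes a zinc finger protein, starts on the other strand, 427 bases from the first annotated base of the Gas5 gene. The Gas5 start printed above is another one, further downstream. The genes overlap, but not in exon bases of the Gas5 model. Zbtb37 was at 0.04 (limma adjusted p = 0.541), where Gas5 rose by 1.35. Sema5a, 148 bases from Snhg18, had a mean of 2.42 and was not tested.

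Levels can be set against each other only per length, and per kilobase (kb) of the model Gas5 and Snhg6 led in all 4 groups. In siLuc cells the order on the log2 scale per kb was Gas5 at 10.80 ± 0.10 (SD, n = 3), Snhg6 at 10.47 ± 0.09, Snhg15 at 9.72 ± 0.16, Snhg8 at 9.58 ± 0.24, Snhg1 at 9.44 ± 0.12, Snhg3 at 9.39 ± 0.08, Snhg5 at 8.86 ± 0.18, Snhg12 at 8.20 ± 0.10 and Snhg20 at 7.10 ± 0.38. The values from Snhg15 to Snhg3 in that order lay within about 1 SD of their neighbours. In siPRMT7 cells Gas5 at 12.16 ± 0.08 and Snhg6 at 12.12 ± 0.06 were no further apart than their spread, and Snhg12 had moved from place 8 to place 3, at 11.62 ± 0.01. Snhg3 had moved from place 6 to place 8, at 8.91 ± 0.13. The order rests on the model lengths in the table.

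Other genes of the snoRNA pathway were taken from lists, which were also set with earlier results of these data known. Of 12 other noncoding hosts, 9 had a line and 6 were tested, and without IFN-γ 3 were higher and 2 lower in siPRMT7 cells, with a median of 0.27, where 36.3% of all genes were higher and 38.9% lower. Whether these shares differ from those of all genes was not tested, here and for the lists that follow. Zfas1, host of box C/D snoRNAs, rose by 1.58 (limma adjusted p = 8.84e-18) and Snhg17 rose by 0.81 (adjusted p = 5.93e-09), while Snhg10 fell by 0.43 and Dancr fell by 0.43. With IFN-γ the counts were again 3 and 2. IFN-γ raised 1 and lowered 3 of them in siLuc cells (28.0% and 32.7% of all genes), and in siPRMT7 cells it raised 0 (0 at an unadjusted p under 0.05 in limma) and lowered 4 (28.0% and 28.6% of all genes).

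Protein-coding hosts, mostly genes of ribosomal proteins and translation factors, showed a different balance. Of 43 tested, 8 were higher and 29 lower in siPRMT7 cells (36.3% and 38.9% of all genes), with a median of -0.23 against -0.01 over all genes. Under quantile normalization this balance was 16 higher and 17 lower with a median of 0.01, so its direction depends on the scaling. Eif4a2, which encodes an RNA helicase of translation initiation, rose by 1.60 (limma adjusted p = 1.14e-18), and Taf1d, of an RNA polymerase I factor, rose by 0.84 (adjusted p = 1.19e-10). Atp5b, of the mitochondrial ATP synthase, fell by 0.89 (adjusted p = 7.76e-14), and Nop58, whose product is itself part of box C/D particles, fell by 0.88 (adjusted p = 2.38e-15). IFN-γ lowered 35 of 43 in siLuc and 26 of 43 in siPRMT7 cells (32.7% and 28.6% of all genes) and raised 1 and 2 (28.0% of all genes in each).

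Genes of proteins that bind or assemble snoRNAs were mostly lower. Of 19 tested, limma called 17 lower and 0 higher in siPRMT7 cells without IFN-γ (38.9% and 36.3% of all genes), with a median of -0.66. Naf1 was at -0.09 and Pih1d1 at 0.05, neither past the test, and both are named here after their values were seen. With IFN-γ the counts were the same (38.7% and 35.9% of all genes), with a median of -0.59. At an unadjusted p under 0.05, 0 were higher too. Under either other scaling 17 were again lower in both settings, and 2 were higher with IFN-γ. Nhp2, of the H/ACA particle, went from 11.77 to 10.70 and fell by 1.07 (SE 0.05, limma adjusted p = 1.04e-14). Fbl, the methyltransferase of box C/D particles, went from 11.02 to 10.13 and fell by 0.88 (adjusted p = 1.64e-13). The 2 lists share Nop56, Nop58 and Dkc1, which are protein-coding hosts as well. Of the 19, IFN-γ raised 1 and lowered 16 in siLuc cells (28.0% and 32.7% of all genes). In siPRMT7 cells it raised 2 and lowered 13 (28.0% and 28.6% of all genes).

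Of 19 nonsense-mediated decay factors, 5 were higher and 11 lower in siPRMT7 cells without IFN-γ (36.3% and 38.9% of all genes), with a median of -0.26. With IFN-γ 6 were higher and 9 lower (35.9% and 38.7% of all genes), and the median was then above 0, at 0.03. Rbm8a, which encodes the exon junction protein Y14, went from 10.67 to 9.03 and fell by 1.63 (SE 0.05, limma adjusted p = 6.30e-17). Nbas fell by 0.74 (adjusted p = 1.87e-11). Dhx34, a helicase of the pathway, rose by 0.61 (adjusted p = 5.11e-08) and Upf3b, which links the exon junction to the decay machinery, rose by 0.35 (adjusted p = 7.00e-08). IFN-γ raised 3 and lowered 10 in siLuc cells (28.0% and 32.7% of all genes), and raised 4 and lowered 6 in siPRMT7 cells (28.0% and 28.6%).

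**Figure D5:**
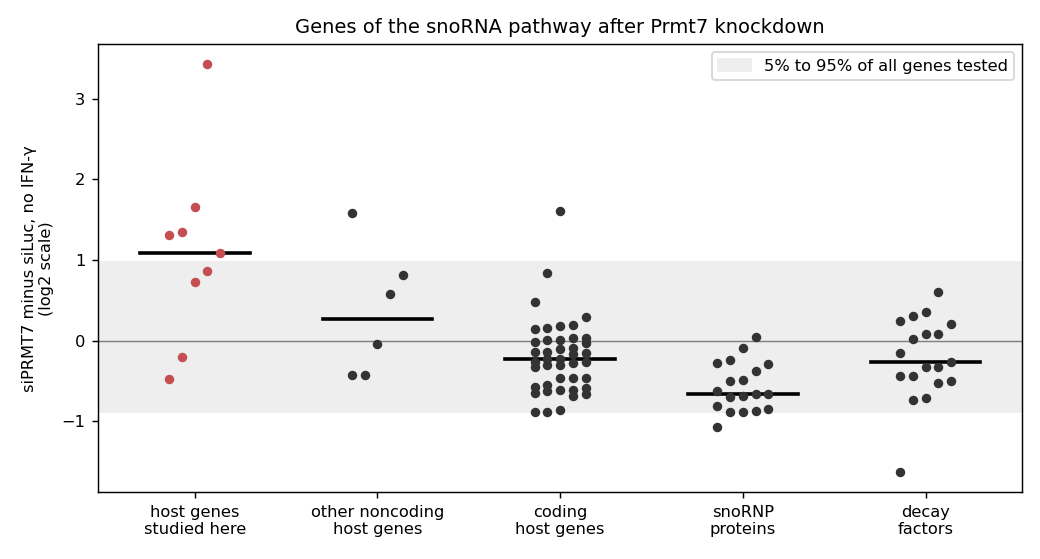
Difference of group means between siPRMT7 and siLuc cells without IFN-γ (log2 scale) for the 9 measured host genes (red), 6 other noncoding hosts, 43 protein-coding hosts, 19 snoRNA-binding and assembly proteins and 19 decay factors (black); each point is a gene and the bar is the list's median. The grey band runs from the 5th to the 95th percentile of all genes tested. The medians stand at 1.09, 0.27, -0.23, -0.66 and -0.26. The first includes Snhg12, which the counts in the text leave out, and is 0.98 without it.

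Genes with a pattern like that of the host genes were searched over the 12 libraries, among 2828 genes whose group means spanned at least 1. The measure is Pearson's r, which here reflects mainly the gap between the siLuc and siPRMT7 libraries. Closest to the mean of the 9 centred host genes were Inka2 (r = 0.994), Sema6a (0.993), Eif4a2 (0.990), Zfp607b (0.990) and Rph3a (0.989). Closest to Snhg12 were Zfas1 (r = 0.999), Cpe (0.998), Cacna1a (0.998), Ehd3 (0.997) and Masp1 (0.996). Group means of Zfas1 in siLuc without and with IFN-γ were 11.50 and 11.47, and in siPRMT7 they were 13.08 and 13.05. Those of Cacna1a, a calcium channel gene, were 5.92 and 5.90 against 9.02 and 9.10. Both genes, like Snhg12, differed widely between the arms and little with IFN-γ, which is what the search selected for. Cpe, which encodes a prohormone carboxypeptidase, went from 13.61 to 14.69 between the untreated groups.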

How the data were processed

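Poly(A) RNA of 12 libraries (4 groups of 3) was sequenced. Per the file headers, the deposited values of each library are rlog values, on a log2 scale, beside the authors' log2 fold changes, p-values and adjusted p-values, each a second group over a first. The submitters' processing notes name Trimmomatic 0.39, STAR 2.7.1a, HOMER 4.11.1, DESeq2 1.26.0 and mm10 (GRCm38). The strand setting of the counting was not given in the sources used here. rlog values are scaled for depth and draw weakly measured genes toward their mean. Library totals, per the file headers, ran from 19.0 to 31.0 M reads; counts per gene were not used.

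Group means were fitted over all 12 libraries with limma 3.58.1 in R 4.3.3 (mean-variance trend, 2-sided), with Benjamini-Hochberg adjustment over 14407 genes with a mean of at least 4 and calls below 0.05. The fit, with 8 residual degrees of freedom, was tested on simulated data. The interaction is the IFN-γ response in siPRMT7 minus that in siLuc cells. Alternatives were the filter, scaling, variance model, samples in the fit, a replicate block and leaving out each library. The members, lists and rules were chosen with earlier results of these data known. Named were all host genes, Prmt7, small RNAs inside them and neighbouring genes, from each list the 2 called genes with the largest rise and fall without IFN-γ and in the interaction, and the 5 most similar genes. A few items that these rules and lists would name are not reported here. Levels per kb subtract the log2 of the deposited model length. All 55536 identifiers were found in GENCODE M21.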

Additional observations from a re-analysis of the deposited data

Results flagged for a closer look

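The response to IFN-γ differed between control and knockdown cells in Snhg1, by a test of the difference itself. The difference was 0.44 on the log2 scale (limma interaction term, SE 0.07, adjusted p = 3.19e-05), with responses of -0.56 in siLuc and -0.12 in siPRMT7 cells, and it ran from 0.37 to 0.48 when each library was left out in turn.

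Snhg8 differed the other way, at -0.41 (SE 0.12, adjusted p = 0.00937), with responses of 0.18 in siLuc and -0.24 in siPRMT7 cells. It ran from -0.53 to -0.29 with each library left out, and with no filter on low values its limma adjusted p was 0.0539. In this test 1 of the 9 host genes was called higher and 1 lower, against 14.1% and 16.5% of all genes tested. Groups of 3 libraries are too small for a test of single outlying libraries.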

How the results depend on the processing

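Of 851 values of the 9 host genes under the other settings (the knockdown values of Snhg12 aside), 807 kept their direction and side of the threshold, 12 lost the call, 20 gained one and 12 changed sign. The count of host genes called higher after knockdown, Snhg12 aside, was 6 under each setting, without and with IFN-γ. Those called lower without IFN-γ numbered 1 to 2 with each library left out, 2 without siLuc replicate 3. For IFN-γ in siLuc cells, 0 to 1 were higher with each library left out, and 8 instead of 5 were lower with library medians set equal. In the interaction 0 instead of 1 was lower with no filter.

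The sign changes were in values that had not passed. For Snhg20 the knockdown difference without IFN-γ ran from -0.38 to 0.0052 with each library left out, and that with IFN-γ from -0.060 to 0.022, and the latter was 0.073 with medians set equal and 0.077 with quantile normalization. The interaction ran from -0.070 to 0.090 for Snhg12, -0.0065 to 0.15 for Snhg15, -0.017 to 0.36 for Snhg20 and -0.012 to 0.093 for Gas5, which was at -0.022 with quantile normalization. The cause was not tested.

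With the replicate number as a block, 1 host gene (Snhg8) was higher with IFN-γ in siLuc cells instead of 0, and other counts of host genes stayed within 1.5 times. The headers call the number a series and do not say what libraries of a series share. Deviations of same-numbered libraries correlated from -0.12 to 0.22 (median 0.063, 14 of 18 pairs above 0). Those of different numbers ran from -0.15 to 0.16 with a median of -0.021 (36 pairs). The best match in another group had the same number in 23 of 36 cases. Same-numbered libraries were thus somewhat more alike, though not throughout, and the main p-values take no account of this. In siPRMT7 with IFN-γ, replicates 2 and 1 correlated at 0.16 and 0.13 with siLuc replicates 1 and 2. The same-numbered values there were -0.033 for replicate 1, -0.12 for replicate 2 and 0.12 for replicate 3. Not every same-numbered pair passed 0.1, so the block is given only as an alternative.

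Among all genes called for IFN-γ in siLuc cells 46.1% were higher, 37.4% with medians set equal and 34.1% after quantile normalization. In the interaction 46.1% were higher, and 58.9% with medians set equal. With quantile normalization the fall of Gas5 with IFN-γ in siPRMT7 cells was -0.30 instead of -0.18, and that of Snhg1 -0.21 instead of -0.12. Drawn-in values limit what can be said of the small RNAs.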

Other observations

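Some pathway genes differed in their IFN-γ response between control and knockdown cells (limma interaction term, log2 scale). Of 43 protein-coding hosts 6 had a higher and 2 a lower response in siPRMT7 cells (14.1% and 16.5% of all genes). Rabggtb, host gene and subunit of a geranylgeranyl transferase, was at 0.38 (adjusted p = 2.41e-05), Ipo7, an importin gene, at 0.21 (adjusted p = 0.00670) and Eif4a2 at -0.21 (adjusted p = 0.00542). Rabggtb went from 11.35 to 10.90 with IFN-γ in siLuc and from 11.38 to 11.30 in siPRMT7 cells. With medians set equal 15 were higher and 2 lower, and after quantile normalization 3 were higher and 7 lower, so the balance depends on the scaling.

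Of 19 proteins that bind or assemble snoRNAs, Rrp9 at 0.41 (adjusted p = 0.000497) and Shq1 at 0.26 (adjusted p = 0.0181) passed the same test. Of 19 decay factors 7 had a higher and 0 a lower response (8 and 0 at an unadjusted p under 0.05 in limma), among them Casc3 at 0.31 (adjusted p = 0.000588) and Rbm8a at 0.24 (adjusted p = 0.0150). Over all genes tested 14.1% were called higher and 16.5% lower. Of 6 other noncoding hosts 0 passed, and 1 was lower at an unadjusted p under 0.05 in limma.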
